A study of Mus musculus with 12 samples.

Results

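The collagen gene family was read in RNA sequencing libraries of mouse bone marrow and lung taken with and without acute myeloid leukaemia (AML). Members were all genes whose symbol is Col, a number, a and a number, and 44 of the 55291 symbols in the files met that rule. They were sorted into 11 fibrillar collagens, 8 basement membrane collagens and 25 others, without use of the measured values. All 44 symbols were found in the GENCODE M21 annotation of GRCm38, and none lies on chromosome 18.

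Marrow AML and lung AML libraries came from VECadCre-tdTomato mice that had received AML cells of genotype Trp53(R172H/Δ), which carry 1 mutant and 1 deleted allele of the tumour suppressor. Marrow control and lung control libraries came from mice of the same line that had received no cells, so every group carried the VECadCre and tdTomato alleles. In that line the recombinase is driven from the VE-cadherin promoter, and cells with a history of its activity glow red. The labels name the cells as VE-cadherin-positive endothelial cells and give neither age nor sex of the mice, nor the time after transplantation. There were 3 libraries in each of the 4 groups, made with kits for very small amounts of RNA. Whether the 3 libraries of a group came from 3 mice is not stated, and p-values therefore measure a spread that may be technical.

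Collagens are secreted proteins in which 3 chains wind into a triple helix. Fibrillar collagens pack into the cables of bone, tendon, cartilage and vessel walls. Type IV collagen forms the sheet under endothelium and epithelium, types XV and XVIII are linked to such sheets, and the remaining families decorate fibrils, form beaded filaments or span cell membranes. In marrow, type I collagen is the main protein of bone matrix and is made by osteoblasts and their precursors. Endothelial cells and the pericytes around them make type IV collagen. Fibroblasts, smooth muscle cells and cartilage cells each have a collagen repertoire of their own.

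Total counts lay between 12.8 and 39.2 M per library. Transcripts of the labelled cell type were scarce in marrow, low in lung AML and highest in lung control. Cdh5, which encodes VE-cadherin, averaged 0.634 ± 0.291 CPM (counts scaled to the library with TMM factors) in marrow AML and 4.91 ± 1.51 CPM in marrow control, and 15.9 ± 14.4 CPM in lung AML and 188 ± 143 CPM in lung control (SD, n = 3 each). Summed over 20 pan-endothelial genes, levels ranged from 224 to 280 CPM in marrow AML and from 271 to 428 CPM in marrow control, and from 392 to 1485 CPM in lung AML and from 3952 to 13765 CPM in lung control. Summed levels of 20 marrow stromal and osteolineage genes ranged from 13758 to 23345 CPM in marrow AML and from 7246 to 13549 CPM in marrow control. A large part of the marrow AML sum came from 1 of these genes, Spp1, whose values are given below. In lung, 20 epithelial genes summed to at least 235908 CPM in every AML library and to at least 167537 CPM in every control library. Each collagen level below is that of such a mixture, and fewer cells of a type cannot be told apart from less RNA per cell.

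Collagen transcripts took a smaller share of the AML libraries in both tissues. In marrow AML they were 0.674%, 0.624% and 0.383% of all counts, against 1.84%, 1.26% and 1.64% in marrow control. In lung AML they were 0.229%, 0.202% and 0.217%, against 0.425%, 0.281% and 0.488% in lung control. The groups did not overlap within either tissue. Exact two-sided permutation of 3 libraries against 3 cannot give a p under 0.1, so no test of these shares was made.

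The make-up of those counts differed as well. Fibrillar collagens were 59.2% ± 12.3 of the collagen counts in marrow AML and 96.2% ± 0.811 in marrow control (SD, n = 3 each). Basement membrane collagens were 18.5% ± 8.75 in marrow AML and 0.843% ± 0.309 in marrow control. All others were 22.3% ± 6.99 in marrow AML and 2.97% ± 0.507 in marrow control. In lung, fibrillar collagens held 25.9% ± 5.03 in AML and 48.9% ± 17.3 in control, and basement membrane collagens 39.1% ± 5.79 in AML and 31.8% ± 20.1 in control. One lung control library stood apart, with 29.0% of its collagen counts from fibrillar genes and 55.0% from basement membrane genes. The other 2 had 57.4% and 60.2% from fibrillar genes. Shares of a library add to a fixed whole, so a fall in 1 class raises the others. In lung, basement membrane collagens summed to 933 ± 118 CPM in AML and 1184 ± 378 CPM in control. Fibrillar collagens summed to 621 ± 141 and 2172 ± 1178 CPM there, and all others to 837 ± 60.6 and 827 ± 308 CPM.

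**Figure D1:**
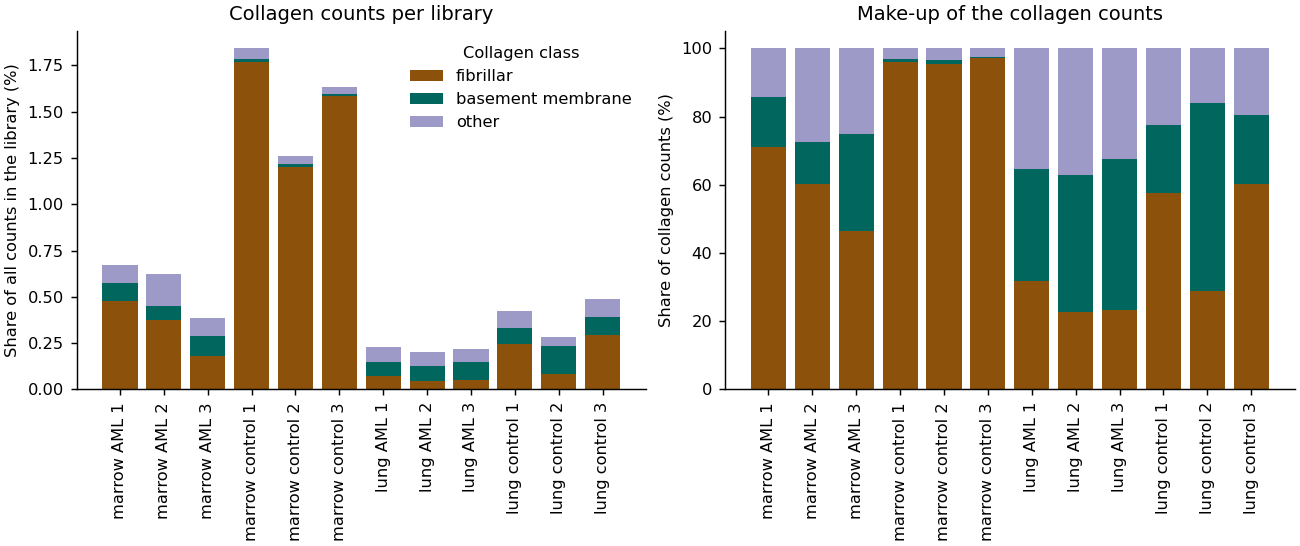
Left, the share of all counts that fell on collagen genes in each of the 12 libraries, in percent; right, the make-up of those collagen counts, in percent, with colours for the 3 classes. Marrow control libraries are the tallest at left, with 1.26% to 1.84%, and nearly all fibrillar at right.

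Of the 44 collagens, 43 had enough counts to be tested, and Col10a1, a collagen of growth plate cartilage, did not. A gene was called when its adjusted p in edgeR's quasi-likelihood test was under 0.05. In marrow AML against marrow control, 10 collagens were higher, where 20.4% of all genes tested were higher, and 10 were lower, where 23.5% of all genes were lower. Together they made 46.5% of the tested collagens, which is near the 43.8% of all genes. Without overlap between the groups, 9 collagens were higher, where 20.4% of all genes were, and 11 were lower, where 27.5% of all genes were.

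By class, directions in marrow were mixed. Of 11 fibrillar collagens 2 rose and 6 fell in AML, with a median log2 fold change of -2.36, against -0.11 over all genes tested. Of 8 basement membrane collagens 4 rose and 1 fell, with a median of 2.33. Of the 24 other collagens tested 4 rose and 3 fell.

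Lung AML against lung control gave 1 call, Col3a1, which was lower. Among all genes 1.17% were called higher and 1.16% lower in that comparison, 2.33% together, and 2.33% of the tested collagens were called. At an unadjusted p under 0.05, 2 collagens were higher, where 7.43% of all genes were, and 7 were lower, where 9.08% of all genes were. Without overlap between the groups, 5 collagens were higher, where 18.2% of all genes were, and 5 were lower, where 16.8% of all genes were. The DESeq2 Wald test called 1 collagen higher and 5 lower of 39 with an adjusted p, where it called 4.56% of all genes higher and 5.79% lower. Limma-voom called 1 higher and 6 lower, where it called 5.55% of all genes higher and 7.03% lower. Col3a1 was among the lower genes in both.

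Marrow control against lung control gave 13 collagens higher, where 29.4% of all genes were higher, and 18 lower, where 34.7% of all genes were lower. Called in either direction were 72.1% of the tested collagens and 64.2% of all genes. Without overlap, 13 collagens were higher in marrow control, where 34.3% of all genes were, and 18 were lower, where 40.5% were. Of the fibrillar class 9 were higher and 1 was lower in marrow, and of the basement membrane class none was higher and 7 were lower.

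The test of the difference between AML effects, marrow minus lung, asks whether a gene moved differently in the 2 tissues. It called 9 collagens higher, where 14.6% of all genes were, and 5 lower, where 16.1% of all genes were, which together is 32.6% of the collagens against 30.7% of all genes. The 2 AML comparisons use separate libraries, but this difference shares all of them.

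**Figure D2:**
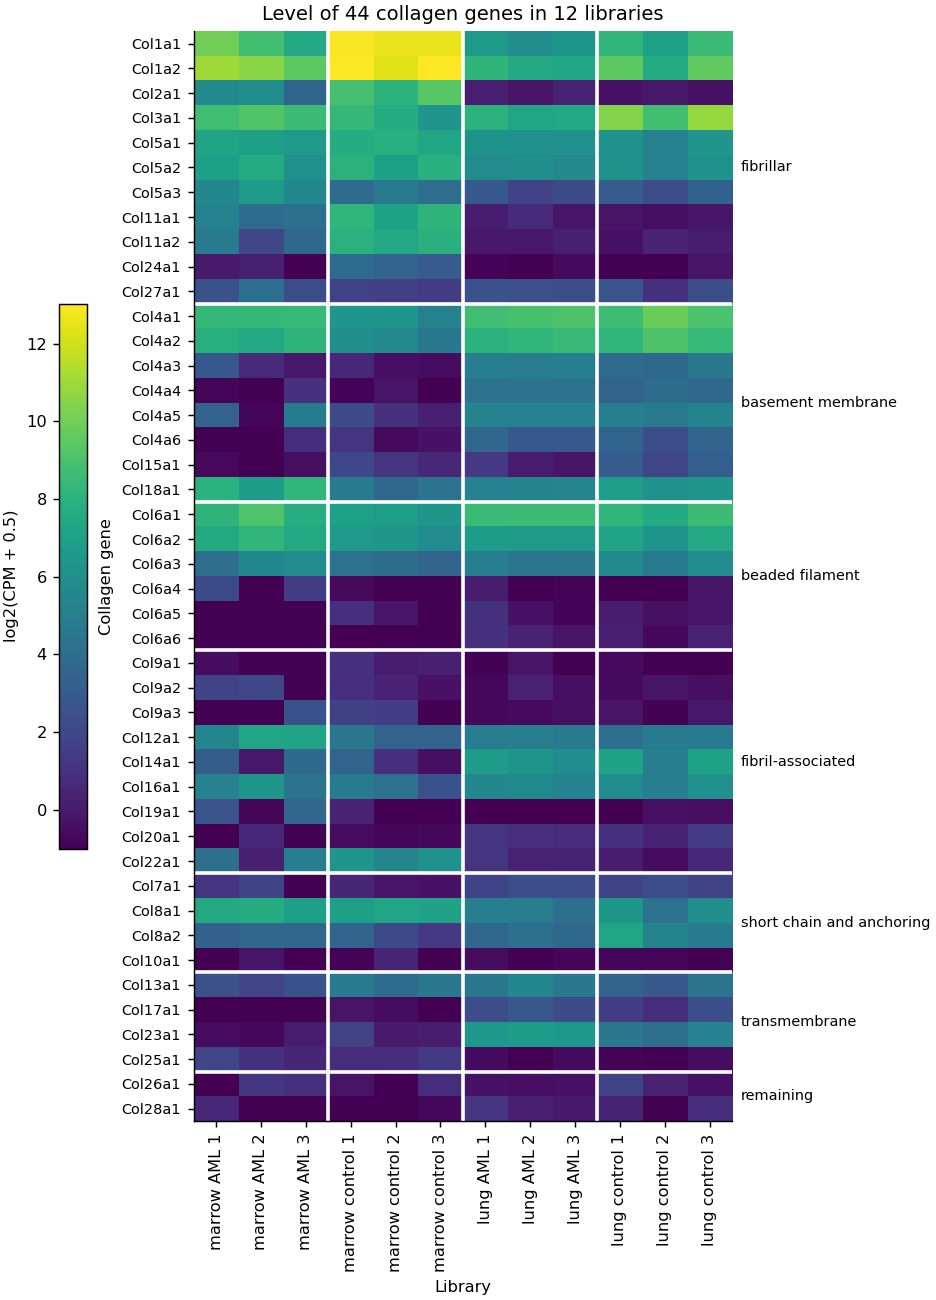
Level of each of the 44 collagen genes (down the page, grouped by family) in each of the 12 libraries (across), as log2(CPM + 0.5) on the colour scale. Col1a1 and Col1a2 are brightest in the 3 marrow control libraries, and Col4a1 and Col4a2 are darkest there.

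Among the fibrillar genes, the chains of type I collagen led. Col1a1 and Col1a2 encode the 2 chains that combine in type I collagen, the main protein of bone. Col1a1 had 1010, 439 and 190 CPM in marrow AML, against 7721, 6364 and 6309 CPM in marrow control. All 3 AML libraries lay far below all controls. Its log2 fold change was -3.64 (SE 0.57, adjusted p = 0.000531), and without the marrow AML library of the highest level it was -4.43. Col1a2 had 2087, 1459 and 728 CPM in marrow AML, against 8363, 5408 and 8156 CPM in marrow control, again without overlap. It fell by 2.36 on the log2 scale (SE 0.52, adjusted p = 0.00374). The fall of Col1a1 was the larger, so the ratio of Col1a1 to Col1a2, per kilobase of exon, was 0.49 to 0.92 in marrow AML and 1.46 to 2.23 in marrow control. Both calls held in all 20 alternative analyses. Some of these leave out a lung library, which is not in this comparison, and are weaker checks of it.

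In lung the type I chains lay far lower. Col1a1 had 95.1, 58.5 and 81.7 CPM in lung AML, against 305, 131 and 376 CPM in lung control, without overlap. Its log2 fold change was -1.78 (SE 0.53) and it was not called (adjusted p = 0.111), although DESeq2 (adjusted p = 0.0140), limma-voom (adjusted p = 0.00643) and a fit of the 6 lung libraries alone (adjusted p = 0.0466) called it. Over all alternatives its adjusted p ranged from 0.00643 to 0.352. Col1a2 had 289, 180 and 165 CPM in lung AML, against 712, 196 and 789 CPM in lung control, which overlapped. It was called by limma-voom alone (adjusted p = 0.0452, range 0.0452 to 0.475 over the alternatives). The log2 difference of the AML effects was -1.85 (SE 0.74, adjusted p = 0.0803) for Col1a1 and -0.94 (SE 0.70, adjusted p = 0.345) for Col1a2, and edgeR called neither in the fit of all libraries. For Col1a1 that difference was called by DESeq2, by limma-voom and without the highest marrow AML library, where it was -2.65, with adjusted p from 0.00904 to 0.205 over the alternatives.

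Col3a1, which encodes the single chain of type III collagen of vessel walls and soft connective tissue, followed another course. It had 423, 604 and 371 CPM in marrow AML, against 326, 202 and 79.5 CPM in marrow control. Every AML library was higher than every control, but the log2 fold change of 1.20 (SE 0.54) was not called (adjusted p = 0.0904). In lung it had 262, 153 and 177 CPM in AML, against 1384, 442 and 1778 CPM in control, again without overlap. It fell by 2.61 on the log2 scale (SE 0.56, adjusted p = 0.0376). That call was lost in 8 of the 20 alternatives, among them the omission of any 1 lung AML library or of lung control 1 or 3, with adjusted p from 8.06e-05 to 0.166 over all 20. The difference of the 2 effects was 3.81 (SE 0.77, adjusted p = 0.00396), which held in every alternative.

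Per kilobase, the ratio of Col3a1 to Col1a1 was 0.28, 0.92 and 1.30 in marrow AML, against 0.028, 0.021 and 0.0084 in marrow control. In lung it was 1.84, 1.75 and 1.44 in AML, against 3.04, 2.27 and 3.16 in control. In both tissues the groups did not overlap, in opposite directions. In marrow this follows from the 2 genes, which were separate in opposite directions, so the ratio adds no support there. Col3a1 and Col1a1 are not partner chains. Ratios of this kind use the exon length of the annotation and show unequal change between 2 genes, not which of them changed.

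**Figure D3:**
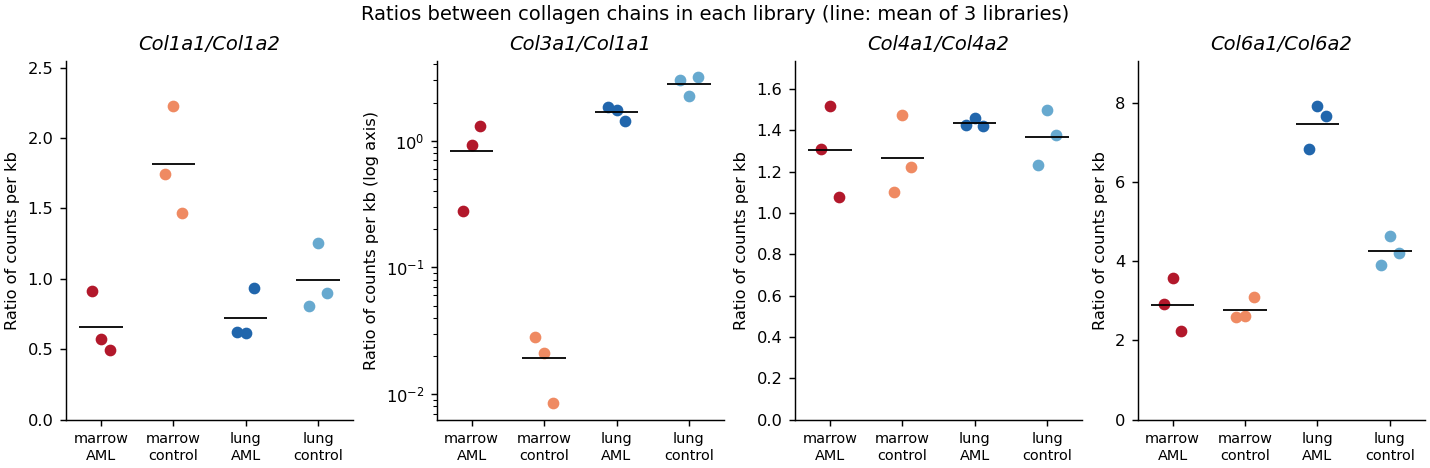
Ratio of counts per kilobase of exon between pairs of collagen genes in each library; points are libraries, lines are means of 3, and the Col3a1/Col1a1 axis is logarithmic. The Col1a1/Col1a2 ratio is 0.49 to 0.92 in marrow AML and 1.46 to 2.23 in marrow control, and the Col4a1/Col4a2 ratio overlaps across the groups.

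The fibrillar collagen genes Col2a1, Col11a1 and Col11a2 were present in marrow and scarce in lung. Col2a1 encodes the chain of type II collagen, and Col11a1 and Col11a2 encode chains of type XI collagen, which sits in the core of cartilage fibrils and is also made by osteoblasts. Col2a1 had 52.7, 60.6 and 10.8 CPM in marrow AML, against 481, 270 and 671 CPM in marrow control. Col11a1 had 35.1, 14.7 and 17.0 CPM in marrow AML, against 306, 139 and 284 CPM in marrow control. Col11a2 had 27.8, 3.48 and 12.3 CPM in marrow AML, against 249, 179 and 235 CPM in marrow control. For none of the 3 genes did the groups overlap.

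All 3 fell in marrow AML, by 3.52 for Col2a1 (SE 0.56, adjusted p = 0.000562), by 3.45 for Col11a1 (SE 0.44, adjusted p = 0.000159) and by 3.94 for Col11a2 (SE 0.59, adjusted p = 0.000393) on the log2 scale. In every lung library each stood at 1.16 CPM or less. Marrow control exceeded lung control by a log2 fold change of 10.42 (SE 0.80) for Col2a1, 9.51 (SE 0.61) for Col11a1 and 8.61 (SE 0.76) for Col11a2, at adjusted p of 1.49e-06, 5.46e-07 and 3.43e-06. The difference of AML effects was called for all 3, at -4.28, -4.53 and -3.86.

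Other cartilage genes were read beside them. Of 12 listed cartilage genes 10 were tested, 1 rose (Sox5, log2 fold change 2.11) and 1 fell (Sox6, -1.98) in marrow AML. Among all genes tested, 20.4% were higher and 23.5% lower. The summed level of the 12 cartilage genes ranged from 147 to 830 CPM in marrow AML and from 121 to 747 CPM in marrow control. Matn1, which encodes matrilin-1, had 0 counts in both marrow groups. Acan, the core protein of the main cartilage proteoglycan, averaged 1.71 ± 2.91 CPM in marrow AML and 4.08 ± 3.53 CPM in marrow control (SD, n = 3 each).

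Bone cell genes moved in both directions in marrow AML. Bglap, which encodes osteocalcin, averaged 112 ± 133 CPM in marrow AML and 995 ± 505 CPM in marrow control, a log2 fold change of -3.15 (adjusted p = 0.0054). Alpl, Phex, Sparc and Bglap2 fell as well. Spp1, which encodes osteopontin, rose instead, with 8191 ± 4169 CPM in marrow AML and 931 ± 339 CPM in marrow control. The 20 stromal and osteolineage genes, Spp1 included, summed to a mean of 17182 CPM in marrow AML and 10988 CPM in marrow control. Ibsp, which encodes bone sialoprotein, averaged 1696 ± 414 CPM in marrow AML and 1215 ± 841 CPM in marrow control and was not called (log2 fold change 0.48, adjusted p = 0.39). Dmp1, a matrix gene of osteocytes, averaged 219 ± 162 CPM in marrow AML and 89.0 ± 61.9 CPM in marrow control and was not called either (log2 fold change 1.30, adjusted p = 0.0738). In the same list of 20 stromal and osteolineage genes 8 rose and 6 fell, where 20.4% of all genes were higher and 23.5% lower. Those that rose included Spp1 (3.14), Lepr (1.70), Kitl (2.32) and Cxcl12 (0.99), on the log2 scale. The part of these cell types in the collagen values was not tested.

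Type V collagen regulates the diameter of type I fibrils. Col5a1 had 148, 121 and 92.6 CPM in marrow AML, against 202, 218 and 156 CPM in marrow control. Groups did not overlap, and its log2 fold change of -0.67 (SE 0.27) was not called (adjusted p = 0.0618). Col5a2 had 125, 198 and 64.4 CPM in marrow AML, against 261, 127 and 243 CPM in marrow control, which overlapped (log2 fold change -0.70, SE 0.40, adjusted p = 0.177). Both were called higher in marrow control than in lung control, by 1.62 and 1.82 on the log2 scale. Col5a3, a further chain, was called higher in marrow AML. It had 45.5, 103 and 47.0 CPM in marrow AML, against 14.6, 26.8 and 15.5 CPM in marrow control, and rose by 1.78 (SE 0.43, adjusted p = 0.00645). Its difference of AML effects was 2.41 (SE 0.61, adjusted p = 0.0118).

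Of the remaining fibrillar collagens, Col24a1 had 0.518, 0.687 and 0 CPM in marrow AML, against 14.3, 10.6 and 7.79 CPM in marrow control. It encodes a fibrillar chain found in developing bone, and its fitted log2 fold change was -4.77 (SE 1.42, adjusted p = 0.0185). Of the 4 groups, marrow control alone, where it was high, reached the filter in all 3 libraries. Its place among the fibrillar collagens that fell is therefore no independent support for the fall. Col27a1, a cartilage fibrillar chain, had 5.05, 17.2 and 4.75 CPM in marrow AML, against 2.89, 2.66 and 2.22 CPM in marrow control, and was called higher (log2 fold change 1.80, SE 0.62, adjusted p = 0.0347). This call was lost in 9 of 20 alternatives, among them limma-voom and the omission of any 1 marrow control library (adjusted p from 0.00559 to 0.187 over the alternatives). Without the marrow AML library at 17.2 CPM the value was 0.92 and no longer called.

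**Figure D4:**
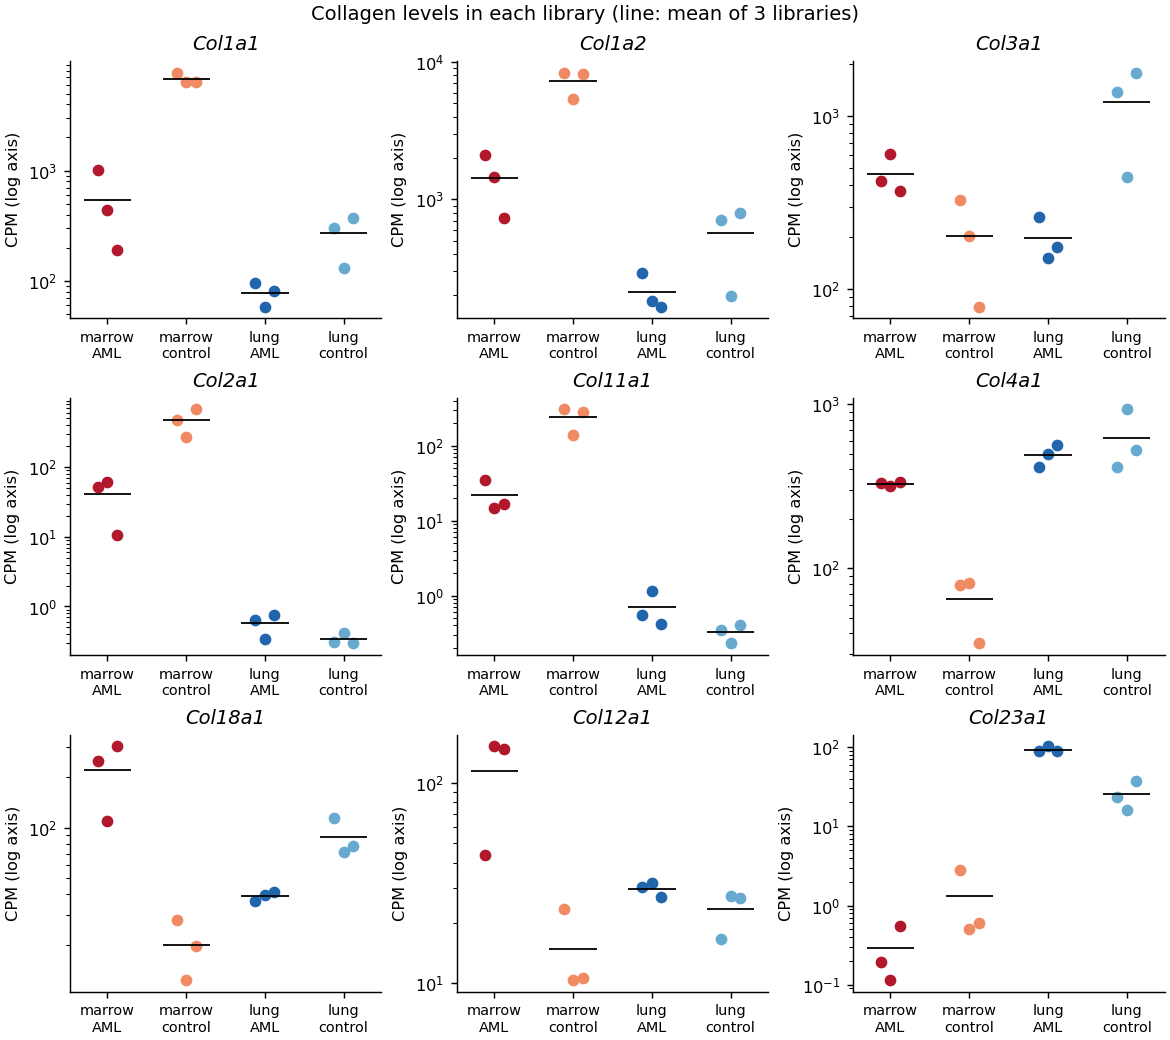
Level of 9 collagen genes in each library, in CPM on logarithmic axes that differ between panels; points are libraries and lines are means of 3. Col1a1, Col1a2, Col2a1 and Col11a1 are lower in all 3 marrow AML libraries than in all 3 marrow control libraries, and Col4a1, Col18a1 and Col12a1 are higher.

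The basement membrane class was led by Col4a1 and Col4a2, whose products combine, as 2 chains of the first kind and 1 of the second, in the type IV collagen found under nearly all endothelium. They lie head to head on chromosome 8. In GENCODE M21 Col4a1 runs from 11198423 to 11312826 on the minus strand and Col4a2 from 11312805 to 11449287 on the plus strand. Their annotated starts are 21 bases apart and overlap, so 22 exon bases belong to both genes and reads there cannot be assigned without strand. Col4a3 and Col4a4, which encode 2 of the chains of the specialised membranes of kidney and lung alveoli, share such an arrangement on chromosome 1, with 71 bases between their starts. Col4a5 and Col4a6, on the X chromosome, start 1309 bases apart. For the first and second pair, whose starts lie close together and whose members are compared below, the stretch at the starts is shown. For the first it is the 22 bases from 1 start to the other, which are exon of both genes. For the second it is the bases between the starts. Both are read from RefSeq on GRCm38.p6, 5′ to 3′ on the minus strand, and capitals mark a match to the motif GGGCGG (the core of a binding site for Sp1) on either strand.
Col4a1/Col4a2, chr8:11312805-11312826: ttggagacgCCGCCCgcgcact
Col4a3/Col4a4, chr1:82586850-82586920: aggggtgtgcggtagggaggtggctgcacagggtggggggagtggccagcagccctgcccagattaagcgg
Within the Col4a1/Col4a2 stretch GGGCGG occurred once, on the strand opposite to the one printed, and CCAAT did not occur on either strand. GGGCGG was found in 4.09% of the same window of 32851 mouse promoters, and CCAAT in 2.28%. Neither motif occurred between Col4a3 and Col4a4, where 20.7% and 13.3% of promoters hold them. Guanine and cytosine made 72.7% of the first stretch and 69.0% of the second.

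Col4a1 rose in marrow AML. It had 329, 319 and 334 CPM in marrow AML, against 78.4, 80.8 and 34.8 CPM in marrow control. Col4a2 had 223, 186 and 274 CPM in marrow AML, against 63.1, 48.5 and 25.3 CPM in marrow control. For both, the lowest AML library was more than double the highest control. Log2 fold changes were 2.34 (SE 0.35, adjusted p = 0.000408) for Col4a1 and 2.32 (SE 0.34, adjusted p = 0.000347) for Col4a2, and both calls held in all 20 alternatives.

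The 2 partner chains kept a similar balance. Per kilobase, the ratio of Col4a1 to Col4a2 was 1.08 to 1.52 in marrow AML and 1.10 to 1.48 in marrow control, and 1.42 to 1.46 in lung AML and 1.23 to 1.50 in lung control. Ranges overlapped between AML and control in each tissue.

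In lung neither gene was called. Col4a1 had 416, 500 and 562 CPM in lung AML, against 412, 928 and 527 CPM in lung control, and Col4a2 had 259, 303 and 351 CPM in lung AML, against 296, 550 and 340 CPM in lung control. Groups overlapped, and the log2 fold changes were -0.34 (SE 0.34, adjusted p = 0.745) and -0.38 (SE 0.32, adjusted p = 0.679). Lung control library 2, which was highest in both genes, was also the highest in pan-endothelial genes, at 13765 CPM. Without it the value for Col4a1 was 0.07. Marrow control was lower than lung control by log2 fold changes of -3.27 (SE 0.37) for Col4a1 and -3.11 (SE 0.35) for Col4a2. The AML effects differed between the tissues by 2.68 (SE 0.48, adjusted p = 0.00215) and 2.70 (SE 0.46, adjusted p = 0.00171), which held in every alternative.

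Col18a1, the source of endostatin and a component of vascular basement membranes, had the strongest such difference of any collagen by p. It had 250, 109 and 305 CPM in marrow AML, against 28.1, 12.4 and 19.6 CPM in marrow control. In lung it had 36.5, 39.9 and 41.2 CPM in AML, against 113, 71.2 and 77.9 CPM in control. The groups were separate in both tissues, with AML the higher in marrow and the lower in lung. It rose by 3.47 in marrow on the log2 scale (SE 0.40, adjusted p = 9.16e-05). The lung value of -1.16 (SE 0.37) was not called by edgeR (adjusted p = 0.134) and was called by DESeq2 (adjusted p = 0.0412) and limma-voom (adjusted p = 0.0105), with a range of 0.0105 to 0.421 over the alternatives. The difference was 4.63 (SE 0.54, adjusted p = 0.000239).

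Type XV collagen, the close relative of type XVIII, ran opposite to it in marrow. Col15a1 had 0.130, 0 and 0.244 CPM in marrow AML, against 3.63, 1.71 and 1.02 CPM in marrow control, a fitted log2 fold change of -4.02 (SE 1.07, adjusted p = 0.0107). In lung it had 2.02, 0.556 and 0.333 CPM in AML, against 7.96, 3.38 and 8.48 CPM in control, which did not overlap and was not called by edgeR (log2 fold change -2.75, SE 0.95, adjusted p = 0.167). DESeq2 (adjusted p = 0.0183) and limma-voom (adjusted p = 0.00581) called it, with a range of 0.00581 to 0.458 over the alternatives.

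The minor type IV chains were found mostly in lung. Col4a3 had 31.5, 29.3 and 31.9 CPM in lung AML, against 14.7, 13.2 and 23.7 CPM in lung control. Col4a4 had 19.6, 19.6 and 20.1 CPM in lung AML, against 10.4, 14.8 and 12.3 CPM in lung control. Both were higher in every AML library, and neither was called (adjusted p = 0.722 and 0.864). Col4a5 had 36.1 to 38.0 CPM in lung AML and 27.5 to 40.3 CPM in lung control, and Col4a6 had 6.38 to 11.99 CPM in lung AML and 4.65 to 11.4 CPM in lung control.

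In marrow these 4 were low and scattered. Col4a3 had 6.86, 1.18 and 0.419 CPM in marrow AML, against 1.02, 0.251 and 0.180 CPM in marrow control. The groups overlapped, and although it was called higher (log2 fold change 2.46, SE 0.92, adjusted p = 0.0483), the call was lost in 13 of the 20 alternatives, and without the AML library at 6.86 CPM the value was 0.68. Of its exon bases 5.65% are shared with a gene on the opposite strand. Col4a4 ranged from 0 to 1.47 CPM in marrow AML and from 0 to 0.352 CPM in marrow control, Col4a5 from 0.0764 to 26.8 CPM and from 0.659 to 4.28 CPM, and Col4a6 from 0 to 1.29 CPM and from 0.151 to 1.63 CPM, each AML range given before its control range. All 4 were called lower in marrow control than in lung control, with log2 fold changes of -5.10, -6.47, -3.94 and -3.67 for Col4a3 to Col4a6.

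Type VI collagen forms beaded filaments around cells, and its common form combines the products of Col6a1, Col6a2 and Col6a3. Col6a1 had 280, 566 and 216 CPM in marrow AML, against 132, 117 and 86.6 CPM in marrow control. Col6a2 had 182, 302 and 184 CPM in marrow AML, against 97.0, 84.8 and 53.1 CPM in marrow control. Neither gene overlapped between the groups. Col6a3 had 15.5, 45.6 and 53.1 CPM in marrow AML, against 18.8, 15.3 and 11.3 CPM in marrow control, with 1 AML library among the controls. All 3 rose, by log2 fold changes of 1.66 (SE 0.35, adjusted p = 0.00307), 1.51 (SE 0.32, adjusted p = 0.00314) and 1.33 (SE 0.42, adjusted p = 0.0246). The call of Col6a3 was lost in 5 alternatives, among them the omission of marrow AML 2 or 3 or of marrow control 2 or 3.

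In lung none of the 3 was called. Col6a1 had 383, 386 and 373 CPM in lung AML, against 303, 189 and 386 CPM in lung control. Col6a2 had 107, 92.6 and 92.6 CPM in lung AML, against 147, 77.3 and 174 CPM in lung control. The ratio of Col6a1 to Col6a2 per kilobase was 6.82 to 7.91 in lung AML and 3.90 to 4.65 in lung control, without overlap, and 2.23 to 3.56 in marrow AML and 2.59 to 3.10 in marrow control, with overlap. The AML effects differed between the tissues for Col6a2 (1.96, SE 0.45, adjusted p = 0.00751) and Col6a3 (2.13, SE 0.59, adjusted p = 0.0193), and were not shown to differ for Col6a1 (1.28, SE 0.49, adjusted p = 0.0689).

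The 3 other type VI chains, Col6a4, Col6a5 and Col6a6, stood at 4.01 CPM or less in every library. Col6a4 had 62, 0 and 69 counts in marrow AML, against 3, 0 and 0 counts in marrow control, so the groups overlapped. Summed over the 3 libraries, 131 against 3 counts gave a ratio of 36.1 (95% counting interval 12.1 to 177). That interval leaves out the spread between libraries, and Col6a4 was not called. Col6a5 had 0 counts in each marrow AML library, against 29, 7 and 0 counts in marrow control, so the groups overlapped and 1 library held 29 of the 36 counts. It was called lower (adjusted p = 0.0328). That call was lost in 7 of 18 alternatives, among them limma-voom and the omission of any 1 marrow AML library or of marrow control 1 or 2, with adjusted p from 0.00782 to 0.215 over the alternatives. Col6a6 had 0 counts in both marrow groups.

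Among fibril-associated collagens, which coat or bridge larger fibrils, Col12a1 rose in marrow AML. Type XII collagen is found in tendon, bone surfaces and healing tissue. Col12a1 had 43.6, 152 and 148 CPM in marrow AML, against 23.5, 10.4 and 10.6 CPM in marrow control, without overlap. Its log2 fold change was 2.95 (SE 0.48, adjusted p = 0.000627), and the difference from the lung effect was 2.62 (SE 0.64, adjusted p = 0.0103). In lung it had 30.3, 31.5 and 27.0 CPM in AML, against 16.6, 27.3 and 26.7 CPM in control.

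Col16a1, a chain of connective tissue and smooth muscle, had 37.2, 80.7 and 20.9 CPM in marrow AML, against 27.6, 19.0 and 5.39 CPM in marrow control. The groups overlapped, and its log2 fold change of 1.42 (SE 0.58) was not called (adjusted p = 0.0666). Col14a1, a marker of many fibroblasts, had 107, 77.2 and 56.8 CPM in lung AML, against 133, 31.0 and 139 CPM in lung control. In marrow it ranged from 0.420 to 13.5 CPM in AML and from 0.240 to 10.6 CPM in control. Col22a1, known from tissue junctions such as that of muscle and tendon, was found mostly in marrow. It had 17.9, 0.687 and 32.3 CPM in marrow AML, against 85.6, 40.7 and 72.1 CPM in marrow control, and 1.77 CPM or less in every lung library. The marrow groups did not overlap, but the difference was not called (log2 fold change -1.96, SE 0.92, adjusted p = 0.107), and marrow control was higher than lung control by 6.77 (SE 1.18, adjusted p = 0.000432).

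The chains of type IX collagen, Col9a1, Col9a2 and Col9a3, which coat type II fibrils in cartilage, reached at most 5.30 CPM in any library. Col9a1 had 3 counts over the marrow AML libraries, 56 over marrow control, 9 over lung AML and 3 over lung control. Only in marrow control, the group where it was high, did all 3 libraries reach the filter, so its calls lend no independent support. It was called higher in marrow control than in lung control, with a ratio of 24.4 (95% counting interval 7.94 to 122). The call was lost in 8 of 19 alternatives, among them DESeq2 and the omission of any 1 marrow control library (adjusted p from 0.00453 to 0.125 over the alternatives). In marrow AML it was not called. Col19a1 had 5.44, 0.0764 and 11.8 CPM in marrow AML, against 0.791, 0 and 0 CPM in marrow control, and 0.269 CPM or less in lung. Col20a1 stayed at 2.29 CPM or less throughout.

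Of the short chain and anchoring collagens, Col8a1 and Col8a2 encode chains of type VIII collagen, which is made by endothelial and smooth muscle cells. Col8a1 had 182, 202 and 122 CPM in marrow AML, against 119, 152 and 134 CPM in marrow control, with overlap (log2 fold change 0.32, SE 0.44, adjusted p = 0.577). In lung it had 31.8, 28.8 and 17.1 CPM in AML, against 85.8, 18.3 and 60.2 CPM in control. Col8a2 had 12.5, 17.6 and 13.0 CPM in lung AML, against 156, 38.4 and 27.6 CPM in lung control. The groups did not overlap, and a log2 fold change of -2.37 (SE 0.70) was not called by edgeR (adjusted p = 0.107). DESeq2 (adjusted p = 0.00804) and limma-voom (adjusted p = 0.0315) called it, with a range of 0.00804 to 0.504 over the alternatives. Without the control library at 156 CPM the value was -1.21. The AML effects on Col8a2 differed between the tissues by 3.39 (SE 0.97, adjusted p = 0.0217), a call lost in 5 alternatives, and the value without that library was 2.26.

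The balance of the 2 chains separated the tissues. Per kilobase, Col8a1 exceeded Col8a2 by 5.41 to 10.8 times in marrow AML and 5.87 to 38.8 times in marrow control. In lung the ratio was 0.75 to 1.46 in AML and 0.27 to 1.25 in control. Col7a1, which encodes the anchoring fibrils under epithelium, was at 4.75 CPM or less in every library.

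Among membrane-spanning collagens, Col13a1, found at cell contacts and at the junction of nerve and muscle, had 5.12, 3.28 and 5.30 CPM in marrow AML, against 27.4, 14.3 and 24.3 CPM in marrow control. In lung it had 24.1, 43.8 and 25.3 CPM in AML, against 10.9, 6.99 and 20.8 CPM in control. Groups were separate in both tissues, with AML the lower in marrow and the higher in lung. It fell by 2.27 in marrow (SE 0.45, adjusted p = 0.00196), a call lost under limma-voom (adjusted p = 0.0902, range 5.97e-06 to 0.0902 over the alternatives), while the lung value of 1.27 (SE 0.43) was not called (adjusted p = 0.159). The difference was -3.53 (SE 0.62, adjusted p = 0.00185).

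Col23a1, another membrane-spanning chain, was higher in every lung AML library than in any lung control. It had 88.1, 102 and 87.9 CPM in lung AML, against 23.1, 16.0 and 36.8 CPM in lung control. Every AML library was more than double every control. The log2 fold change of 1.88 (SE 0.57) was not called in the fit of all libraries (adjusted p = 0.116) and was called by DESeq2 (adjusted p = 0.0274), by limma-voom (adjusted p = 0.000756) and in the fit of the 6 lung libraries (adjusted p = 0.0234), with a range of 0.000756 to 0.348 over the alternatives. In marrow it had 0.194, 0.115 and 0.558 CPM in AML, against 2.84, 0.502 and 0.599 CPM in control. That overlapping difference was called (log2 fold change -2.12, SE 0.73, adjusted p = 0.0353) but lost in 11 alternatives, and without the control at 2.84 CPM it was -0.84. Col17a1, a chain of epithelial attachment sites, and Col25a1, first known from brain, were at 6.51 and 3.30 CPM or less. The 2 remaining collagens, Col26a1 and Col28a1, were at 2.78 and 1.63 CPM or less.

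**Figure D5:**
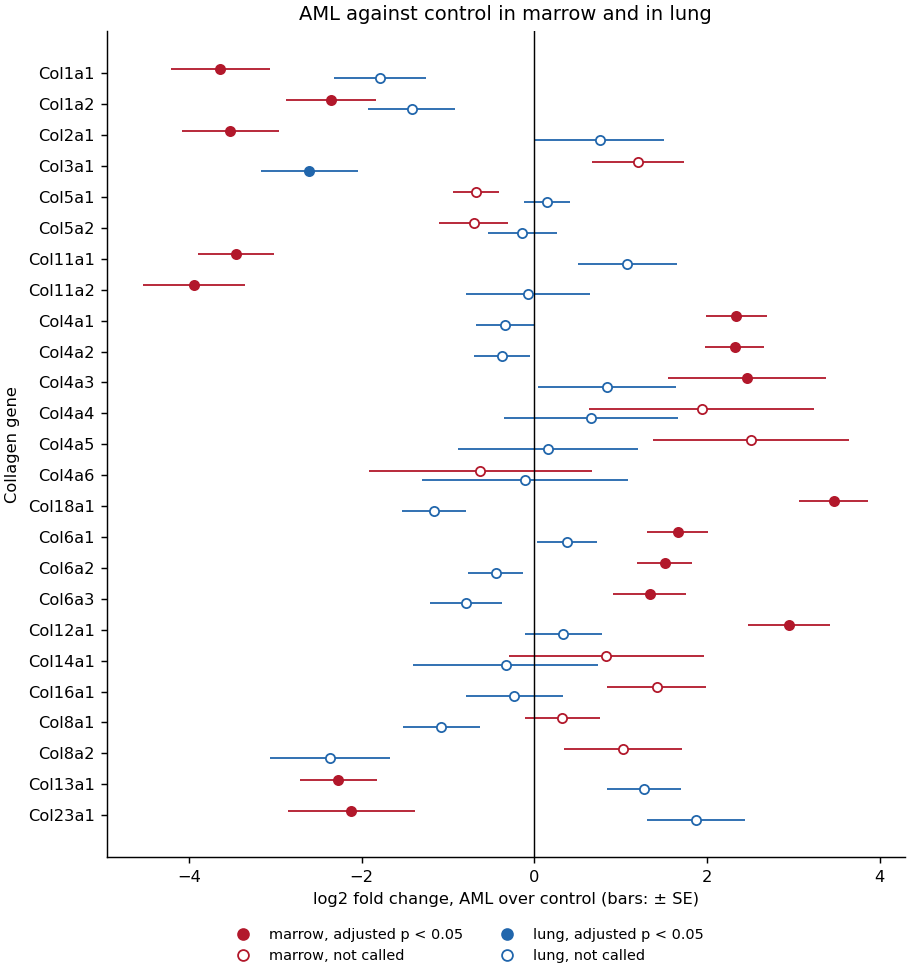
Log2 fold change of AML over control for 25 collagen genes in marrow (red) and lung (blue); bars are ± 1 SE and filled points are called at an adjusted p under 0.05. Filled red points lie left of 0 for Col1a1, Col1a2, Col2a1, Col11a1, Col11a2, Col13a1 and Col23a1 and right of 0 for Col4a1 to Col4a3, Col18a1, Col6a1 to Col6a3 and Col12a1, and the only filled blue point is Col3a1.

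Beside the counts that follow, 20.4% of all genes tested were higher and 23.5% lower in marrow AML, and 1.17% and 1.16% in lung AML. Mural cell markers rose in the marrow AML libraries. Of 14 genes of pericytes and smooth muscle 11 rose and none fell in marrow AML, Acta2, Pdgfrb and Rgs5 among them. Their summed level ranged from 2675 to 9904 CPM in marrow AML and from 229 to 720 CPM in marrow control. In lung none of the 14 was called, and the sums were 634 to 1012 CPM in AML and 922 to 2207 CPM in control. Pan-endothelial genes gave 1 higher and 9 lower of 20 in marrow AML, and none higher and 11 lower in lung AML. Of 12 lung fibroblast genes none was called in lung AML, where they summed to 4659 to 6542 CPM, against 1841 to 4173 CPM in lung control. Blood cell genes differed between the groups as well. Erythroid genes summed to 1238 to 5382 CPM in marrow AML, against 26179 to 28565 CPM in marrow control, and 14 of 15 fell and none rose. In lung they summed to 349 to 588 CPM in AML and 537 to 561 CPM in control, and 4 rose. Pan-leukocyte genes summed to 713 to 854 CPM in marrow AML, against 233 to 305 CPM in marrow control, and 11 of 18 rose and 3 fell. In lung they summed to 576 to 740 CPM in AML and 641 to 873 CPM in control, and none was called. The part of mural, endothelial, fibroblast, erythroid and leukocyte transcripts in the collagen values was not tested.

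Collagen chains are hydroxylated, glycosylated and folded in the endoplasmic reticulum before secretion. Of 20 genes for these steps 9 rose and 1 fell in marrow AML, with a median log2 fold change of 0.72, against -0.11 over all genes tested, of which 20.4% were higher and 23.5% lower. Plod3, a lysyl hydroxylase that also adds sugars and acts on type IV collagen, averaged 76.2 ± 18.8 CPM in marrow AML and 16.1 ± 2.24 CPM in marrow control (SD, n = 3 each; log2 fold change 2.24, adjusted p = 2.43e-05). P3h2, a prolyl 3-hydroxylase, averaged 57.1 ± 10.6 CPM in marrow AML and 9.90 ± 0.748 CPM in marrow control (2.53, adjusted p = 0.000115). Ppib, a prolyl isomerase of the complex that modifies type I collagen, was the gene that fell, with 110 ± 4.64 CPM in marrow AML and 191 ± 14.9 CPM in marrow control (-0.79, adjusted p = 0.000375).

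Lung AML changed 2 of these 20, where 2.33% of all genes were called. P4ha3, a subunit of prolyl 4-hydroxylase, averaged 35.2 ± 2.84 CPM in lung AML and 5.69 ± 5.29 CPM in lung control (2.62, adjusted p = 0.0464). Serpinh1, the collagen chaperone HSP47, averaged 174 ± 20.1 CPM in lung AML and 420 ± 92.6 CPM in lung control (-1.27, adjusted p = 0.0261).

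Secreted collagen is trimmed and cross-linked outside the cell. Of 19 genes tested for secretion, trimming and cross-linking 6 rose and 2 fell in marrow AML, where 43.8% of all genes were called in either direction. Adamts14, which removes the amino-terminal propeptide of fibrillar collagen, averaged 36.7 ± 10.9 CPM in marrow AML and 5.37 ± 0.821 CPM in marrow control (2.77, adjusted p = 0.00032). The cross-linking enzyme genes Loxl3, Loxl1 and Lox rose by 3.10, 1.86 and 1.51 on the log2 scale. Mia2, a gene of collagen export from the endoplasmic reticulum, fell by 0.72.

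In lung AML 2 of the 19 rose and 1 fell, where 1.17% of all genes were higher and 1.16% lower. Lox averaged 430 ± 120 CPM in lung AML and 18.5 ± 9.53 CPM in lung control, a log2 fold change of 4.54 (SE 0.45, adjusted p = 0.00161). Its rise was larger in lung than in marrow, by a difference of -3.03 (SE 0.56, adjusted p = 0.00236). Pcolce, an enhancer of procollagen trimming, fell in lung AML (-1.96, adjusted p = 0.0431) and rose in marrow AML (1.26, adjusted p = 0.0322).

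Receptors for collagen gave 4 higher and 2 lower of 12 tested in marrow AML, where 20.4% of all genes were higher and 23.5% lower. Itga1, the alpha chain of an integrin for type IV and other collagens, moved in opposite directions in the 2 tissues. It averaged 104 ± 9.41 CPM in marrow AML and 18.5 ± 4.78 CPM in marrow control (2.50, adjusted p = 0.000583), and 39.3 ± 6.95 CPM in lung AML and 239 ± 162 CPM in lung control (-2.60, adjusted p = 0.0112). Adgrg1, a receptor for type III collagen in brain, fell in marrow AML (-1.63, adjusted p = 0.000647). Ddr1, a collagen-activated kinase, rose (1.95, adjusted p = 0.00533).

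Collagen breakdown genes gave 9 higher and 1 lower of 17 tested in marrow AML, with a median log2 fold change of 1.41, against -0.11 over all genes tested, of which 20.4% were higher and 23.5% lower. None was called in lung AML. Among those that rose were both enzymes and their inhibitors. Mmp14, a membrane-bound collagenase, averaged 346 ± 108 CPM in marrow AML and 103 ± 22.8 CPM in marrow control (1.75, adjusted p = 0.000467), and Ctsl, a lysosomal protease, rose by 1.57 (adjusted p = 0.000122). The inhibitors Timp1, Timp3 and Timp4 rose by 2.77, 2.94 and 5.19 on the log2 scale. Timp4 averaged 338 ± 237 CPM in marrow AML and 9.22 ± 6.27 CPM in marrow control.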

How the data were processed

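RNA was sequenced from 12 low-input libraries. The submitters' processing notes name bcl2fastq, STAR and the mm10 build. Versions, counter and annotation were not given in the sources used here. Raw counts per gene symbol were deposited, which the authors did not normalise. Per the file names, strand was ignored, so reads of overlapping genes cannot be assigned to a strand. Whether libraries of the same replicate number are paired is not stated. Correlations of their deviations from group means were -0.16 to 0.18, and 3 of 18 were over 0.1. With 3 libraries per group such values cannot exclude pairing, and the tests treated all libraries as independent.

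From these counts, genes were filtered with edgeR (minimum count 10, minimum total 15), which left 18147, and scaled by TMM factors. The test was edgeR's quasi-likelihood F test (robust) on all 12 libraries in 1 model of 4 groups, with Benjamini-Hochberg adjustment over all genes tested and a threshold of 0.05. The pipeline was tested on simulated data. The SE is the size of the log2 fold change divided by the square root of F. Software was R 4.3.3, edgeR 4.0.16, limma 3.58.1, DESeq2 1.42.0 and matplotlib 3.10.9. Alternatives were other scalings, DESeq2, limma-voom, other filters, a replicate block, a fit restricted to the groups compared, and omission of each library. Intervals and floors cover counting error only. Total counts of 12.8 to 39.2 M per library set the precision, which is coarse for genes near 1 CPM.

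Exon lengths came from GENCODE M21, and promoter sequences from RefSeq (GRCm38.p6), whose table held 35 of the 44 collagens. Members and lists were chosen with earlier results of these data known. Collagens were described by rule: the highest 5 fibrillar, 5 basement membrane and 8 other collagens by mean CPM, up to 5 called with the smallest p per comparison, and partner chains. Of each pathway list, the rule took up to 3 called genes with the smallest p per comparison. Those called in marrow control against lung control are not given here, nor is the secretion gene that rose in lung AML beside Lox. For the difference of AML effects, Lox alone is given. Col5a3, Col15a1, Col22a1, Col24a1 and Col27a1, the collagens given by their range alone, and marker and pathway genes beyond that rule were chosen after their values were seen.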

Additional observations from a re-analysis of the deposited data

Results flagged for a closer look

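For 14 collagens the AML effect differed between marrow and lung by edgeR's test of the difference itself (marrow log2 fold change minus lung log2 fold change, adjusted p under 0.05 over all genes tested). They made 32.6% of the tested collagens, which is near the 30.7% of all genes. The difference was positive for 9, where 14.6% of all genes were higher, and negative for 5, where 16.1% were lower. It was 4.63 for Col18a1 (3.47 in marrow, -1.16 in lung), 2.70 for Col4a2 (2.32 and -0.38), 2.68 for Col4a1 (2.34 and -0.34), 3.81 for Col3a1 (1.20 and -2.61), 1.96 for Col6a2 (1.51 and -0.45), 2.62 for Col12a1 (2.95 and 0.33), 2.41 for Col5a3 (1.78 and -0.63), 2.13 for Col6a3 (1.33 and -0.79) and 3.39 for Col8a2 (1.02 and -2.37), with the marrow value before the lung value in each pair. It was negative for 5, at -4.53 for Col11a1 (-3.45 and 1.07), -3.53 for Col13a1 (-2.27 and 1.27), -4.28 for Col2a1 (-3.52 and 0.76), -4.00 for Col23a1 (-2.12 and 1.88) and -3.86 for Col11a2 (-3.94 and -0.08). The call was lost for Col6a3 without lung AML 3 or lung control 3 (adjusted p up to 0.0513, from 0.00202 over the alternatives), for Col23a1 under limma-voom (adjusted p = 0.0534, range 0.000158 to 0.0534), and for Col8a2 in 5 alternatives, limma-voom and the omission of marrow control 2, lung AML 1, lung AML 3 or lung control 1 (adjusted p from 0.00142 to 0.125). In lung, Col2a1, Col11a1 and Col11a2 stood at 1.16 CPM or less in every library, so their lung values rest on few counts.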

How the results depend on the processing

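Over 20 alternatives, 80 pairs of a collagen and a comparison were recomputed, 61 of them called, and 1446 of 1579 values kept direction and call. These include omissions of libraries that a comparison does not use, which reach it only through the shared filter, scaling and spread. Of the counts of called collagens, those in lung moved most. The number lower was 1 in the report, 5 with DESeq2, 6 with limma-voom, 3 in a fit restricted to the groups compared, 0 with no filter, 0 with the replicate block, and 0 to 2 when each library was left out. Of all genes, 1.16% were lower in the report, 5.79% with DESeq2 and 7.03% with limma-voom. The number higher was 0 in the report, and 1 with DESeq2, with limma-voom and in a fit restricted to the groups compared, and 0 to 1 when each library was left out. Of all genes, 1.17% were higher in the report, 4.56% with DESeq2 and 5.55% with limma-voom. For the difference of AML effects, 5 were lower in the report and 8 with DESeq2. Leaving out each library gave 7 to 13 higher and 8 to 12 lower in marrow AML. In the report 20.4% of all genes were higher and 23.5% lower there. Shares of all genes were not taken under the other alternatives, so their counts of collagens have no background beside them. Whether replicate numbers pair the libraries is not known. With the replicate block, no other count of calls moved by over 1.5 times. For Col4a1, lung AML against lung control, the log2 fold change was -0.57 to 0.067 when each library was left out, the positive value without lung control 2. The summed CPM of basement membrane collagens in marrow AML was 793 and, with type IV chains alone, 571. That of the other collagens in lung AML was 837 and, scaled by library totals alone, 755. Under that scaling the median over all genes in marrow was 0.16, against -0.11 with TMM factors, on the log2 scale, and 0.30 against -0.09 for the difference. No collagen recomputed changed direction under either other scaling. Depth limits the minor type IV, type IX and type VI chains, which had few counts in marrow.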
